A study of Saccharomyces cerevisiae with 6 samples.

Results

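The cytosolic ribosomal protein genes of budding yeast encode the protein parts of both ribosomal subunits. They were taken as the genes whose symbol in the platform annotation is RPL or RPS with a number and an optional paralog letter, together with the stalk genes RPP0, RPP1A, RPP1B, RPP2A and RPP2B. Of 137 such genes in the R64 gene table, 127 had an assigned probe set, among 5449 S. cerevisiae genes measured. They comprised 75 genes of the large subunit and 52 of the small subunit. Each gene was represented by the probe set with the highest mean over the 6 arrays. The other 10 genes were not analysed here.

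The samples came from strain JJ816, whose chromosomal HSC82 and HSP82 genes are deleted, so that a plasmid-borne Hsc82 was the only Hsp90 of the cell. In 3 cultures the plasmid carried hsc82-W296A, in which a tryptophan is replaced by alanine, and in 3 cultures it carried WT HSC82. All grew in YPD, a rich medium, at 30 °C to an OD600 of 0.5. Total RNA of each culture was copied into biotinylated cRNA and read on 1 Affymetrix expression array, and the labels call the cultures biological replicates.

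The Hsp90 chaperone brings a wide range of client proteins, kinases among them, to their active form. Ribosomal protein genes are among the most strongly transcribed genes of growing yeast, and TOR and protein kinase A signalling adjust them as a group through Rap1, Fhl1, Ifh1 and Sfp1. Most exist as an A and a B copy, left from an ancient genome duplication, whose proteins are nearly or fully identical.

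Each change is the hsc82-W296A mean minus the WT Hsc82 mean of the deposited log2 values, with its standard error (SE) from limma and n = 3 arrays in each group. A gene was called higher or lower when its limma p-value, adjusted by Benjamini-Hochberg over all S. cerevisiae probe sets, was under 0.05. Arrays correlated at 0.995 to 0.998 within a genotype and at 0.917 to 0.941 between genotypes. The median over S. cerevisiae probe sets was 11.07 to 11.13 in hsc82-W296A and 10.94 to 11.04 in WT Hsc82, and the median over probe sets of another species on the same arrays was 6.38 to 6.46 in hsc82-W296A and 6.52 to 6.70 in WT Hsc82. The probe set of the plasmid-borne HSC82 read 14.53, 14.53 and 14.56 in hsc82-W296A and 14.24, 14.30 and 14.30 in WT Hsc82, a change of 0.26 ± 0.041. The probe set of HSP82 read 10.28, 10.29 and 10.38 in hsc82-W296A and 10.05, 10.05 and 9.98 in WT Hsc82, above the background level of 8.14, and which RNA it detected was not tested.

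As deposited, ribosomal protein genes were slightly lower in hsc82-W296A, and none was called higher. The median over the 127 genes was 14.22, 14.19 and 14.20 in the hsc82-W296A arrays and 14.28, 14.30 and 14.30 in the WT Hsc82 arrays. All 3 hsc82-W296A medians lay below all 3 WT Hsc82 medians. The median change was -0.08, against 0.04 over all genes measured. Changes ran from -1.03 to 0.04, and 120 of the 127 were negative. An array reads each RNA relative to the total RNA put on it, so fewer cells with a transcript and less of it per cell cannot be told apart.

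Of the 127 genes, limma called 47 lower and 0 higher, and 80 were not called. Over all genes 30.3% were called lower and 37.1% higher, so the 37.0% of ribosomal protein genes called lower was not far above the share of all genes. The absence of higher calls stood further from that background. Without hsc82-W296A replicate 2 the lower calls numbered 30 (23.6%, against 26.2% of all genes), and without hsc82-W296A replicate 3 they numbered 31 (24.4%, against 26.3%). The share also depended on how limma modelled the variances. It was 63.8% with an intensity trend, against 30.9% of all genes, and 57.5% without moderation of the variances, against 28.8%. With the probe sets of all classes fitted together it was 29.1%, against 28.3%. At an unadjusted p under 0.05 the counts were 52 lower and 0 higher. The shares of all genes at that threshold were not counted. In 91 genes every hsc82-W296A array was below every WT Hsc82 array, against 34.1% of all genes, and in 0 genes was every hsc82-W296A array above, against 39.5% of all genes.

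Most of these changes were small. In 76 genes the change was under 0.1 in either direction, in 44 the gene was lower by 0.1 to 0.3, and in 7 it was lower by 0.3 or more. Replicates of these genes also lay close together. The median standard deviation between replicates was 0.0271 over the ribosomal protein genes, against 0.0802 over all genes.

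**Figure D1:**
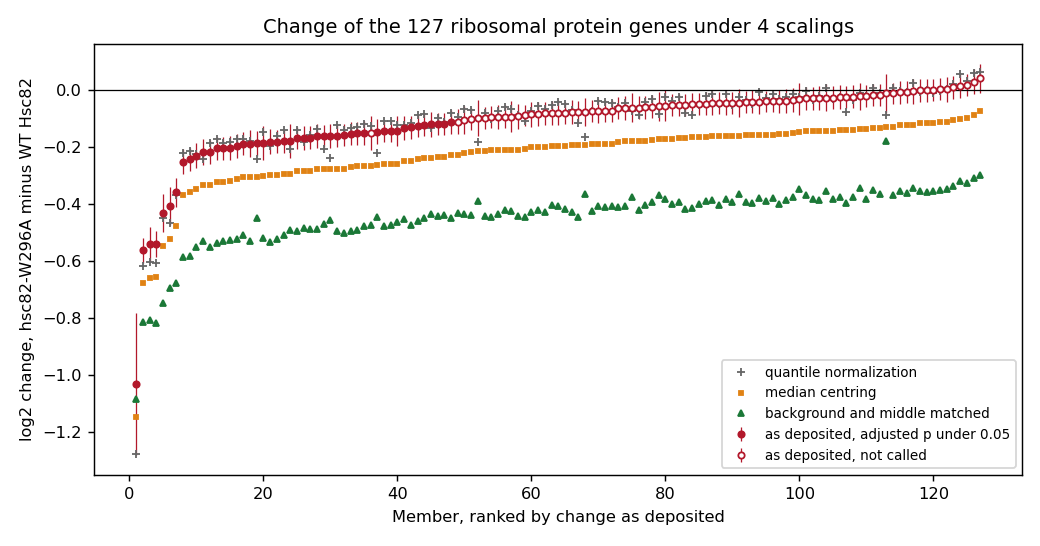
Change of each ribosomal protein gene (y axis, log2, hsc82-W296A minus WT Hsc82), ranked along the x axis by the change as deposited. Red circles are the values as deposited with their SE, filled where the adjusted p was under 0.05, and the other symbols are 3 rescalings of the same arrays. Values as deposited run from -1.03 to 0.04, and matching background and middle moves all 127 genes below 0.

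The size of the shift depended on how the arrays were scaled, as the plot of ranked changes shows. After quantile normalization the median change of the ribosomal protein genes was -0.08, after centring each array on its median it was -0.20, and after rescaling each array so that its background and middle matched the others it was -0.42. These rescalings also moved the median of all genes, by -0.11, -0.12 and -0.10. Relative to the median of all genes, the median of the ribosomal protein genes was -0.12 as deposited and after centring, -0.01 after quantile normalization and -0.36 with background and middle matched. With a trend on gene length removed from the deposited values, that difference was -0.03. Matching background and middle stretches each array linearly, so bright probe sets move most, whatever they encode. Of bright genes outside the family, ASC1 went from -0.06 to -0.42, YEF3 from -0.05 to -0.39 and HSC82 from 0.26 to -0.09.

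The number of lower calls followed the scaling too. It was 47 after quantile normalization, where 41.4% of all genes were called lower, so the share of ribosomal protein genes was then below that of all genes. It was 111 after median centring, against 42.3% of all genes, and 126 with background and middle matched, against 40.6%. No ribosomal protein gene was called higher under any of these 3 scalings, against 31.0%, 31.2% and 32.0% of all genes. There were 27 genes called lower under each scaling, each fitting alternative and with each array left out, wherever all 127 genes could be fitted. They included RPL4A, RPL4B, RPL13A, RPL17B, RPL22A, RPL22B, RPL31B, RPS7B, RPS9A and RPS28B. The share of all genes called lower in every one of these settings was not counted. The 27 genes therefore cannot be set against a background.

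The 7 genes with the largest decreases stood apart from the rest. RPL41A encodes a very short basic peptide at the interface of the subunits, and it read 9.22, 9.20 and 9.78 in hsc82-W296A and 10.85, 10.47 and 9.97 in WT Hsc82. The groups did not overlap, but the highest hsc82-W296A array and the lowest WT Hsc82 array were close. Its change of -1.03 ± 0.249 had an adjusted p of 0.00927 in limma. Without moderation of the variances the adjusted p was 0.0514, the highest over all alternatives, whose lowest was 0.000618. Its probe set carries an ID that marks it as shared with other sequences, and its paralog RPL41B was not analysed here.

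RPL4B encodes a large-subunit protein that reaches into the tunnel through which the nascent chain leaves the ribosome. It read 12.75, 12.69 and 12.71 in hsc82-W296A and 13.27, 13.32 and 13.25 in WT Hsc82. The groups were well separated, and the change was -0.56 ± 0.043 (limma adjusted p = 5.25e-05). RPS9A encodes a small-subunit protein that binds ribosomal RNA early in assembly. It read 13.05, 12.83 and 12.93 in hsc82-W296A and 13.47, 13.49 and 13.49 in WT Hsc82. The WT Hsc82 arrays hardly differed among themselves, all lay above every hsc82-W296A array, and the change was -0.54 ± 0.062 (limma adjusted p = 0.000295).

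RPL22B encodes a non-essential large-subunit protein, and Rpl22 is known to hold back splicing of the RPL22B transcript. RPL22B read 13.14, 13.05 and 13.09 in hsc82-W296A and 13.58, 13.65 and 13.67 in WT Hsc82. The groups did not overlap, and the change was -0.54 ± 0.047 (limma adjusted p = 8.45e-05). RPS28B encodes a protein near the exit of the mRNA channel and is known to limit its own mRNA by promoting its decay. It read 13.62, 13.69 and 13.82 in hsc82-W296A and 14.10, 14.11 and 14.22 in WT Hsc82. Again every hsc82-W296A array was lower, with a change of -0.43 ± 0.066 (limma adjusted p = 0.00113).

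RPS7B encodes a small-subunit protein needed for processing of the small-subunit RNA. Its signal was 13.44, 13.28 and 13.29 in hsc82-W296A and 13.83, 13.69 and 13.72 in WT Hsc82, without overlap. The change was -0.41 ± 0.065 (limma adjusted p = 0.00143). RPL13A, which encodes a large-subunit protein, had 13.85, 13.76 and 13.73 in hsc82-W296A and 14.19, 14.11 and 14.13 in WT Hsc82. These groups did not overlap either, and the change was -0.36 ± 0.050 (limma adjusted p = 0.000732).

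**Figure D2:**
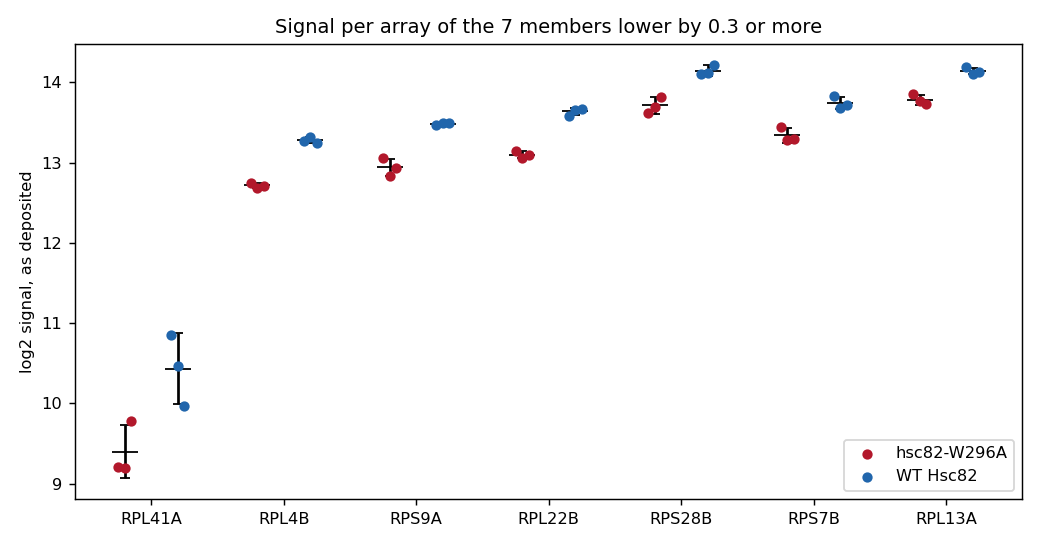
Deposited log2 signal (y axis) of the 7 genes lower by 0.3 or more, with hsc82-W296A arrays in red and WT Hsc82 arrays in blue to their right. Points are single arrays, and black bars are the mean and standard deviation of 3 arrays. The 2 groups of arrays do not overlap in any of the 7 genes, and the gap is narrowest for RPL41A, where the nearest arrays read 9.78 and 9.97.

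After these 7 genes the changes became smaller without a break. RPL17B, another protein of the exit tunnel, changed by -0.25 (limma adjusted p = 0.0019), RPL4A by -0.24 (limma adjusted p = 0.00188) and RPL31B, at the rim of the exit, by -0.23 (limma adjusted p = 0.00307). At the other end lay RPL14B, RPS31, RPS12, RPS6B, RPL40A, RPS19B, RPS11B, RPS23A, RPP0 and RPL3, none of which was called. Of these, RPL14B, RPS11B, RPS19B and RPS23A were read on probe sets with a shared ID. On gene-specific sets RPL14B and RPS11B were called lower, at -0.25 and -0.11 (limma adjusted p = 0.00626 and 0.0498). RPS19B and RPS23A were not called on theirs. RPL3, whose protein reaches toward the catalytic centre of the large subunit, had the highest change, 0.04 ± 0.052. Its arrays read 14.22, 14.37 and 14.33 in hsc82-W296A and 14.26, 14.25 and 14.29 in WT Hsc82, so the groups overlapped.

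The difference between the subunits was not tested, and their counts and medians lay close together. Of 75 large-subunit genes 27 were called lower (36.0%), with a median change of -0.08 and a range of -1.03 to 0.04. Of 52 small-subunit genes 20 were called lower (38.5%), with a median change of -0.08 and a range of -0.54 to 0.02. Both shares were not far above the 30.3% of all genes called lower. The large-subunit median was 14.19, 14.15 and 14.19 in the hsc82-W296A arrays and 14.26, 14.28 and 14.29 in the WT Hsc82 arrays. The small-subunit median was 14.27, 14.23 and 14.24 in the hsc82-W296A arrays and 14.34, 14.36 and 14.36 in the WT Hsc82 arrays. In each subunit every hsc82-W296A median was below every WT Hsc82 median. After median centring the median changes were -0.19 for the large and -0.20 for the small subunit, and with background and middle matched -0.42 and -0.43.

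Within the large subunit, the acidic stalk recruits the translation factors that hydrolyse GTP. Of its 7 genes, 1 was called lower, against 30.3% of all genes. This 1 gene was RPL12A, whose protein sits at the stalk base, with 14.10, 14.10 and 14.09 in hsc82-W296A and 14.23, 14.30 and 14.30 in WT Hsc82. The groups did not overlap, and the change was -0.18 ± 0.042 (limma adjusted p = 0.00789). Its paralog RPL12B had a change of -0.06, the scaffold protein RPP0 of 0.03, and the P1 and P2 genes RPP1A, RPP1B and RPP2B of -0.05, -0.07 and -0.04, none of them called.

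The remaining stalk gene, RPP2A, read 14.06, 13.99 and 13.87 in hsc82-W296A and 14.14, 14.14 and 14.09 in WT Hsc82. Its groups did not overlap, yet the change of -0.15 ± 0.059 missed the threshold (limma adjusted p = 0.0582). With the replicate number as a block the adjusted p was 0.0327, and over all alternatives it ran from 0.00269 with array weights to 0.168 without hsc82-W296A replicate 3.

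Of 13 genes measured at the exit tunnel and its rim, 6 were called lower, namely RPL4A, RPL4B, RPL17B, RPL19A, RPL26B and RPL31B, with a median change of -0.11 over the 13. Of 12 genes of the small-subunit platform and mRNA exit, 7 were called lower, namely RPS0A, RPS0B, RPS1A, RPS14B, RPS26B, RPS28A and RPS28B, with a median change of -0.15. These counts stand beside 30.3% of all genes called lower. At the mRNA entry and the head of the small subunit 1 of 7 was called lower, RPS10B, with a median change of -0.04. Of the 3 genes whose proteins accompany the 5S RNA only RPL5 was called lower, and of the 3 ubiquitin fusion genes only RPL40B was. These groups hold few genes, several of them paralogs of each other, and differences between the groups were not tested.

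Fewer of the genes without a paralog were called. Of 18 single-copy genes 2 were called lower, RPL5 and RPS15, with a median change of -0.03. Of 109 genes with a paralog letter 45 were called lower, with a median change of -0.09. Both counts stand beside 30.3% of all genes called lower. After median centring the medians were -0.15 and -0.21, and with background and middle matched -0.38 and -0.43. Single-copy genes include RPL3, RPL5 and RPS3, whose products are essential. This contrast between the kinds of genes was not tested.

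In 50 pairs both the A and the B gene were measured. Neither class of copy had more calls, with 22 of the 50 A genes and 22 of the 50 B genes called lower, against 30.3% of all genes. The medians were -0.10 for A and -0.09 for B. The A and B genes of a pair did not always share a call. In 8 pairs both genes were called lower, in 14 only the A gene, in 14 only the B gene, and in 14 neither. How often unrelated genes would be split by the calls in this way was not counted.

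Probe sets of different genes bind with different strength, so the difference A minus B was taken within each array and only its shift between genotypes was read. In 36 of the 50 pairs this difference did not overlap between the hsc82-W296A and the WT Hsc82 arrays, each with p = 0.1 in an exact two-sided permutation test, which can give no smaller p with 3 against 3 arrays. These 36 are 72.0% of the pairs, close to the 73.6% of all single genes whose groups did not overlap in either direction, so the count itself shows nothing particular to the pairs. The A gene was the more negative in 15 of the 36 pairs and the B gene in 21. Of the 28 pairs with 1 gene called and the other not, 27 were among the 36.

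The largest divergence was in RPS9. RPS9A minus RPS9B was -1.26, -1.41 and -1.35 in hsc82-W296A and -0.89, -0.90 and -0.90 in WT Hsc82. The shift was -0.45 ± 0.045, and RPS9B itself, with a change of -0.10, was not called (limma adjusted p = 0.0793). In RPL13 the A gene was again the more negative, with RPL13A minus RPL13B at -0.44, -0.49 and -0.53 in hsc82-W296A and -0.12, -0.22 and -0.19 in WT Hsc82. That shift was -0.31 ± 0.039, and RPL13B had a change of -0.05 and was not called.

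The other 4 of the 6 most divergent pairs had the larger decrease in the B gene. RPL22A minus RPL22B was 1.14, 1.20 and 1.16 in hsc82-W296A and 0.85, 0.77 and 0.75 in WT Hsc82, a shift of 0.38 ± 0.033, with a change of -0.16 in RPL22A. RPL4A minus RPL4B was 1.35, 1.46 and 1.44 in hsc82-W296A and 1.13, 1.03 and 1.13 in WT Hsc82, a shift of 0.32 ± 0.047. The RPL4A probe set has a shared ID, so part of the RPL4B signal may enter it, which was not tested.

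RPS28A minus RPS28B was 0.65, 0.57 and 0.42 in hsc82-W296A and 0.27, 0.29 and 0.19 in WT Hsc82, a shift of 0.30 ± 0.075. RPS7A minus RPS7B was 0.61, 0.77 and 0.74 in hsc82-W296A and 0.32, 0.52 and 0.51 in WT Hsc82, a shift of 0.26 ± 0.081. RPS28A and RPS7A themselves changed by -0.13 and -0.15. Both were called (limma adjusted p = 0.021 and 0.0161), but neither call held with every array left out in turn. All 6 pairs kept the direction of their shift and stayed without overlap after quantile normalization and with background and middle matched. In each of them the more negative gene also had the lower mean signal. The same held in 38 of all 50 pairs and in 25 of the 36 pairs without overlap. Whether the shifts follow signal and not the copy was not tested.

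At the other extreme, the copies of RPS16, RPL43 and RPL37 differed little, with shifts of 0.002 ± 0.046, 0.016 ± 0.019 and 0.022 ± 0.017 and overlapping groups. RPS16A and RPS16B had changes of -0.08 each, RPL43A and RPL43B of -0.02 and -0.04, and RPL37A and RPL37B of -0.08 and -0.10. None of these 6 genes was called. Over all 50 pairs the median size of the shift was 0.0912, with 5 pairs over 0.3 and 26 under 0.1.

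**Figure D3:**
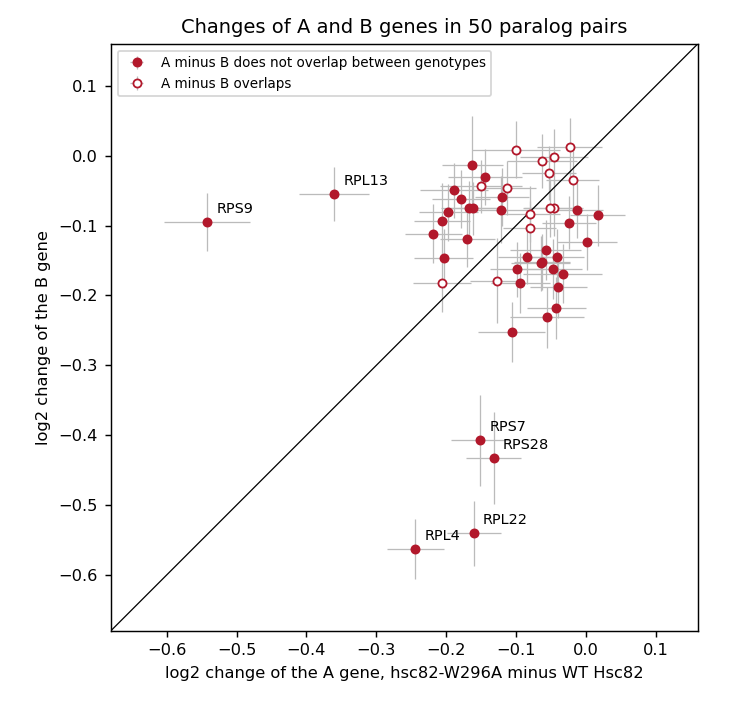
Change of the A gene (x axis) against change of the B gene (y axis), both log2, hsc82-W296A minus WT Hsc82, for the 50 pairs with SE bars. Filled points are the 36 pairs whose A minus B difference does not overlap between genotypes, open points the rest, and the line marks equal change. RPS9 and RPL13 lie above the line with the A gene lower, and RPL22, RPL4, RPS28 and RPS7 lie below it with the B gene lower.

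Because paralogs are nearly identical in sequence, the probes of some sets bind both copies. Of the 127 genes, 102 were represented by a probe set with a gene-specific ID and 25 by one with an ID that Affymetrix gives to sets shared between sequences. Of the 102 gene-specific sets 42 were called lower, with a median change of -0.09, and of the 25 shared sets 5, with a median change of -0.04. The share of all genes called lower was 30.3%. Another 9 genes with a paralog letter had a partner with no assigned probe set.

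For 20 genes the array carried a set of each kind, which gives 2 readings of nominally the same gene. The gene-specific reading was the lower of the 2 changes in 16 of the 20. It was called lower in 8 genes and the shared reading in 3, against 30.3% of all genes, with medians of -0.08 and -0.04. Within arrays, the gene-specific minus shared difference did not overlap between genotypes in 10 of the 20. That is below the 73.6% of all single genes whose groups did not overlap, so the count itself shows no particular divergence.

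RPL18B, singled out after its values were seen, had the widest gap. Its gene-specific set read 13.10, 12.99 and 12.95 in hsc82-W296A and 13.64, 13.56 and 13.44 in WT Hsc82, a change of -0.54 ± 0.068 (limma adjusted p = 0.000488). Its shared set read 14.43, 14.42 and 14.42 in hsc82-W296A and 14.45, 14.46 and 14.48 in WT Hsc82, a change of -0.04 (limma adjusted p = 0.366). RPL14B likewise had a change of -0.25 on its gene-specific set (limma adjusted p = 0.00626) and of -0.002 on its shared set (limma adjusted p = 0.963). The shared set had the higher mean and stood for the gene in 16 of the 20. With the gene-specific set used wherever there was one, an alternative chosen after seeing the data, 50 of the 127 genes were called lower, against 30.3% of all genes, and RPS11B had a change of -0.11 in place of 0.01.

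**Figure D4:**
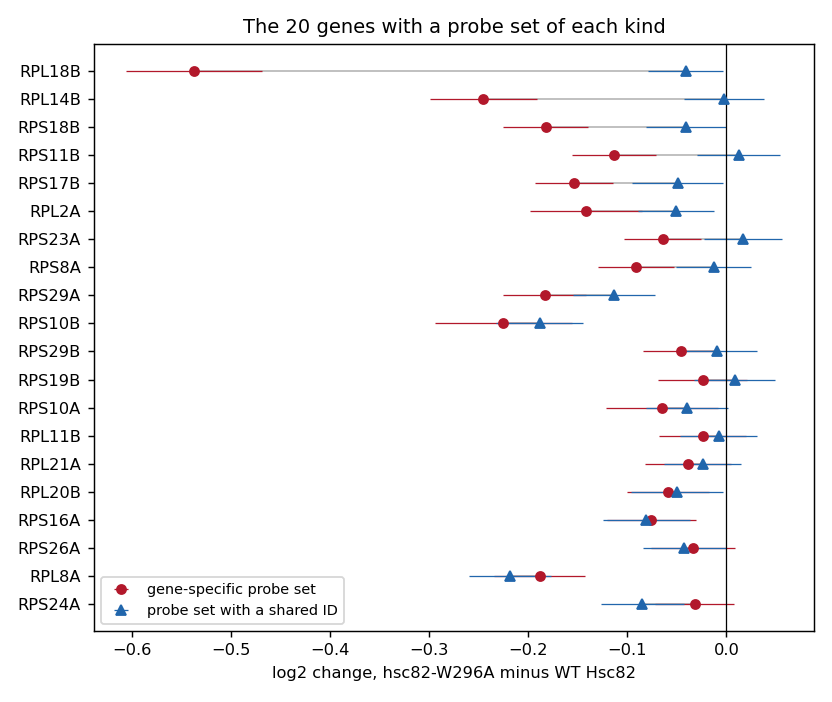
Log2 change, hsc82-W296A minus WT Hsc82 (x axis), of the 20 genes with a probe set of each kind, ordered by the gap between the readings. Red circles are gene-specific probe sets, blue triangles sets with a shared ID, and bars are SE. The gene-specific reading is the lower one in 16 of 20 genes, by most in RPL18B at -0.54 against -0.04.

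Signal was near the top of the scale for most of these genes. Mean signals ran from 9.92 for RPL41A to 14.74, with 103 of 127 at 14 or more, and the highest value on any array was 14.79 to 14.93. None was at or below background. Among the 103 genes at 14 or more, 30 were called lower with a median change of -0.07, and among the 24 genes under 14, 17 were called lower with a median change of -0.16. Of the 69 other yeast genes at 14 or more, 10 were called lower and 18 higher, with a median change of 0.04. These counts stand beside 30.3% of all genes called lower and 37.1% higher. Whether signal is compressed at the top of the scale was not tested.

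Across the 127 genes, mean signal and change were positively related, with Spearman's rho 0.578 and Pearson's r 0.718. Without RPL41A and RPL15B, whose signals lie farthest from the median, rho was 0.597 and r 0.680. Over all genes measured the relation ran the other way, with rho -0.226 and r -0.170. These are descriptions across genes read on the same 6 arrays, and genes are not independent replicates. RPL15B had the second-lowest signal, with 11.90, 11.70 and 11.84 in hsc82-W296A and 11.73, 11.89 and 11.85 in WT Hsc82. Its groups overlapped, with a change of -0.01 ± 0.069.

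**Figure D5:**
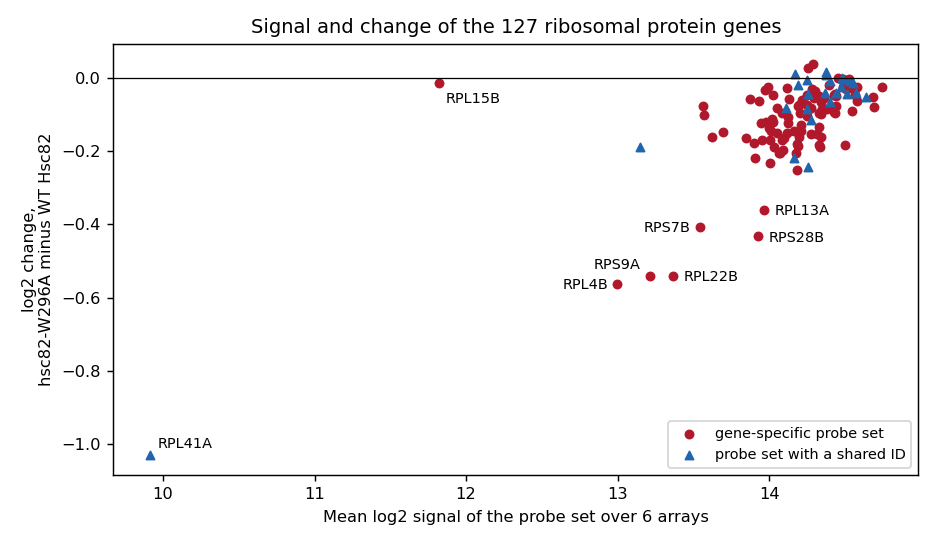
Mean log2 signal over 6 arrays (x axis) against log2 change, hsc82-W296A minus WT Hsc82 (y axis), for the 127 ribosomal protein genes. Red circles are gene-specific probe sets and blue triangles sets with a shared ID. Most genes crowd above 14 with changes near 0, the 7 genes lower by 0.3 or more lie under 14, and RPL15B has low signal with a change of -0.01.

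Most genes whose products act on ribosomal proteins were lower in hsc82-W296A, with changes larger than those of most ribosomal protein genes. Of 14 dedicated chaperones and importers 12 were called lower and 0 higher, against 30.3% and 37.1% of all genes. Their median change was -0.51, and 13 were lower under each of the 3 rescalings. BCP1, the chaperone of Rpl23, read 12.23, 12.23 and 12.11 in hsc82-W296A and 13.06, 12.99 and 12.99 in WT Hsc82, a change of -0.82 ± 0.052 (limma adjusted p = 2.49e-05). RRB1, the chaperone of Rpl3, changed by -0.76, ACL4, the chaperone of Rpl4, by -0.74, and TSR2, the chaperone of Rps26, by -0.72, all called. The exceptions were SQT1 and NAP1, with -0.11 and 0.23, neither called as deposited. With the replicate block NAP1 was called higher (limma adjusted p = 0.00719).

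Of 13 enzymes that modify ribosomal proteins 11 were called lower and 0 higher, against 30.3% and 37.1% of all genes. The enzymes had a median change of -0.54. Those called lower included HPM1, the histidine methyltransferase of Rpl3, at -0.78, and SFM1, the arginine methyltransferase of Rps3, at -0.54. Of 17 factors that bind the ribosome 12 were called lower and 1 higher, against the same shares of all genes, with a median change of -0.25. The nascent-chain chaperones ZUO1, SSZ1 and SSB1 were lower by 0.43, 0.39 and 0.25 on the log2 scale. HEF3, a second copy of elongation factor 3, was the one called higher, with 9.76 ± 0.350 in hsc82-W296A and 7.72 ± 0.379 in WT Hsc82 (SD, n = 3 each). All its WT Hsc82 arrays were below background, so the change of 2.04 was taken against background. YEF3, the main copy, had a change of -0.05 and was not called as deposited, but was lower after median centring (limma adjusted p = 0.0101). With the replicate block GCN1, which senses stalled ribosomes, was called higher as well (limma adjusted p = 0.00339).

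Of 24 genes listed under transcription of ribosomal protein genes, 8 were called lower and 7 higher, with a median change of -0.05. Over all genes 30.3% were called lower and 37.1% higher, so these counts were not far from the shares of all genes. The balance depended on the scaling, with 11 lower and 4 higher for quantile-normalized arrays, 12 and 4 for median-centred arrays, and 13 and 5 with background and middle matched. The shares of all genes were 41.4% and 31.0%, 42.3% and 31.2%, and 40.6% and 32.0% in the same order. With the replicate block 8 were lower and 8 higher, against 32.3% and 40.9% of all genes, the additional one being the kinase SCH9 (limma adjusted p = 0.0251). RAP1, FHL1 and IFH1, the core activators, were not called as deposited, with changes of -0.08, -0.08 and -0.04. RAP1 was called lower after median centring, at -0.20 (limma adjusted p = 0.00922), and with background and middle matched, at -0.16 (limma adjusted p = 0.047), and both RAP1 and FHL1 were called lower after quantile normalization. HMO1, a high-mobility-group protein at many of these promoters, was lower by 0.25 (limma adjusted p = 0.0025). Repressors on the list were called in both directions, and whether each acts on ribosomal protein genes was not tested. STB3 read 10.36, 10.78 and 10.68 in hsc82-W296A and 8.99, 9.16 and 9.33 in WT Hsc82, a change of 1.45 ± 0.130 (limma adjusted p = 9.8e-05). DOT6 rose by 1.56 (limma adjusted p = 5.95e-05), and its paralog TOD6 fell by 0.64 (limma adjusted p = 0.000854). The corepressor CRF1 was called higher at 0.72 (limma adjusted p = 9.26e-05), but its means of 7.67 in hsc82-W296A and 6.95 in WT Hsc82 were both below background. SFP1 was called higher at 0.34 (limma adjusted p = 0.0358), but not after median centring (limma adjusted p = 0.0611).

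Mitochondrial ribosomal proteins, which serve the separate ribosomes of that organelle, gave no settled direction. Of 69 genes 5 were called lower and 19 higher as deposited, against 30.3% and 37.1% of all genes, with a median change of 0.01. After median centring 22 were called lower and 8 higher, against 42.3% and 31.2% of all genes. In both settings they were called less often than all genes in each direction. Markers of growth after the diauxic shift, when glucose runs out and respiration starts, moved strongly with genotype. Of 8 genes listed here 7 were called higher, against 37.1% of all genes, among them ADH2 at 3.37 and SPG4 at 3.82. The glucose transporter HXT1 was called lower at -2.12. The median change over the 8, which mixes both directions, was 2.51. All cultures were labelled as harvested at the same OD600, and the part of growth stage in the changes of the ribosomal protein genes was not tested.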

How the data were processed

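The deposited series table gives 1 value per probe set and array on the log2 scale, as judged from its range, as the authors processed it. limma appears in the submitters' processing notes, with no stated role. How background was corrected, arrays normalized and probes summarized is not given in the sources used here. Of 10928 probe sets, 7244 had 1 gene symbol, 1 had several and 3683 were not listed. Symbols were updated by gene ID through the R64 gene table, which changed 12 symbols and no ribosomal protein gene. This left 5498 S. cerevisiae probe sets of 5449 genes, 1746 of another species, 213 controls and 3471 unassigned.

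All S. cerevisiae probe sets were fitted together in limma 3.58.1 (lmFit, eBayes; R 4.3.3), without a block, and p-values were adjusted over all of them at a threshold of 0.05. Tables and exact permutation tests used Python 3.11.15. The scripts were tested on simulated data. The background level, 8.14, was the 95th percentile over the means of the other-species probe sets. Only 3 arrays per group limit the precision.

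Named genes were the 10 lowest and 10 highest changes, the stalk genes, the 6 pairs with the largest and the 3 with the smallest A against B difference, and members of the other gene lists. The genes and lists were chosen with earlier results of these data known. Other names, such as RPL18B, RPL15B and the called genes of each role, were chosen after their values were seen.

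Arrays of the same replicate number deviated from their group means together (correlations of 0.405, 0.148 and 0.364, each over 0.1), while other arrays correlated at -0.387 to 0.139. The level of 0.1 was also passed by hsc82-W296A replicate 3 with WT Hsc82 replicate 2 (0.139). It was passed by hsc82-W296A replicate 2 with WT Hsc82 replicate 3 (0.107) as well. This level alone therefore does not set arrays of the same number apart. Pairing by number, which rests on these values and not on any label, was used only in the replicate block. The main fit and the permutation tests treated the arrays as unpaired. Alternatives were 3 rescalings, a gene-length trend removed (gene span, introns included), filters on dim and shared probe sets, other variance models, array weights, a replicate block, other choices of probe set and leaving out each array. Promoter and protein sequences were not used here.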

Additional observations from a re-analysis of the deposited data

How the results depend on the processing

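Rescaling moved the counts most. After median centring 111 of 127 ribosomal protein genes were called lower (68 large-subunit, 43 small-subunit, 46 A and 45 B genes), with medians of -0.20, -0.19 for the large and -0.20 for the small subunit. With background and middle matched 126 were lower (74, 52, 50 and 49 in the same order), with medians of -0.42, -0.42 and -0.43, and RPL3, RPL40A, RPP0, RPS6B, RPS11B, RPS19B and RPS23A turned to -0.30, -0.35, -0.31, -0.35, -0.32, -0.34 and -0.33. This rescaling stretches each array linearly, so bright probe sets move most, whatever they encode. RPL41A, with the lowest signal, moved only from -1.03 to -1.09, while the bright gene ASC1, outside the family, moved from -0.06 to -0.42. The larger count and medians under this rescaling therefore cannot be read as particular to ribosomal protein genes. With the gene-length trend removed, 33 were lower, 13 of them B genes, and the medians were -0.041, -0.049 and -0.039. These 33 are 26.0% of the ribosomal protein genes, below the 33.7% of all genes called lower in that setting.

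Some fits raised the counts, while a robust prior gave 47 as before. Lower calls numbered 81 with an intensity trend (47 large, 34 small, 38 B), or 63.8% against 30.9% of all genes. With array weights there were 80 (48 large, 32 small, 34 A, 38 B), or 63.0% against 36.5% of all genes. Without moderation there were 73 (42 large, 31 small, 34 B), or 57.5% against 28.8% of all genes. Array weights also called 1 gene higher, against 45.0% of all genes, and gave medians of -0.10 over the 127 genes and -0.10 for the small subunit. Without probe sets of shared ID the median was -0.094. With the gene-specific set first, RPS11B turned to -0.11 and was called lower (limma adjusted p = 0.0498).

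With the replicate block 42 pairs did not overlap. Removing each block's mean makes this easier to reach, since 3 differences of the same sign are then enough. The 42 therefore cannot be set against the 36 without the block. Under the block 45 genes were lower, against 32.3% of all genes, and RPP2A was called lower. The block changed no other call of a named ribosomal protein gene, and in the other lists it added higher calls for NAP1, SCH9 and GCN1. Leaving out 1 array gave 30 to 46 lower genes, 16 to 27 large, 13 to 19 small, 14 to 22 A and 13 to 22 B. The lowest counts came without hsc82-W296A replicate 2 (30 in all, or 23.6% against 26.2% of all genes, 16 large, 13 B), without hsc82-W296A replicate 3 (31 in all, or 24.4% against 26.3% of all genes, 13 small, 14 B) and without WT Hsc82 replicate 2 (14 A, and 34 in all, against 26.4% of all genes). In the first 2 of these the share of ribosomal protein genes was below that of all genes. RPS28A was not called without hsc82-W296A replicate 2 or 3 or WT Hsc82 replicate 2 or 3, nor with all probe sets fitted, and RPS7A was not called without hsc82-W296A replicate 3 or WT Hsc82 replicate 2. RPL41A, at -0.82 to -1.26 with 1 array left out, was not called without moderation.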
